A study of Mus musculus with 9 samples.

Results

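The genes described here are the expanded placental families of the mouse: the prolactin-related hormones (Prl2 to Prl8 symbols), the pregnancy-specific glycoproteins (Psg), the related carcinoembryonic antigen cell adhesion molecules (Ceacam), the trophoblast-specific proteins Tpbpa and Tpbpb, and the cathepsins Cts3, Cts6, Cts7, Cts8, Ctsj, Ctsm, Ctsq and Ctsr. They were taken by a rule on symbols, which uses no measured value but was set with earlier results of these data known. Pseudogenes were to be left out, of which the symbols matched 0. The rule gave 63 of the 52609 genes with a transcript in the tables. Of these, 4 were proliferin-type Prl2c genes, 21 were other Prl genes, 13 were Psg, 15 were Ceacam, 8 were cathepsins and 2 were Tpbp genes. Their messenger RNA was measured by stranded RNA sequencing in 9 libraries of mouse epiblast stem cell lines, cells derived from dissected epiblast and grown on inactivated mouse embryonic fibroblasts as feeder cells. The 4 groups were a line without Dkk1, whose protein is secreted and blocks Wnt receptors (Dkk1_KO, n = 3), a line grown with IWP2 at 5 µM, an inhibitor of Wnt secretion (IWP2, n = 2), a line from which IWP2 had been taken away (IWP2_removed, n = 2) and an unmodified line (control, n = 2). The medium of all 4 groups contained Activin A (20 ng/mL) together with FGF2 (10 ng/mL). The labels name a line per group without saying how many clones it came from. They do not say that replicates were separate cultures, so p-values measure the spread between these libraries, which may be technical.

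In the mouse placenta the Prl, Psg, Tpbp and cathepsin families are mainly products of differentiated trophoblast. Some Ceacam members, such as Ceacam1 and Ceacam16, are known from other tissues. Trophoblast giant cells secrete placental lactogens and proliferins, which act on the maternal ovary, mammary gland and blood vessels, and the spongiotrophoblast layer expresses Tpbpa, Psg glycoproteins and many later prolactin-related hormones. The placental cathepsins are lysosomal-type proteases of giant cells and spongiotrophoblast. The families grew by tandem duplication, so that neighbouring genes can be nearly identical in sequence.

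Libraries held between 10849490 and 17892751 estimated reads. The targeted gene, Dkk1, had 0.701, 0.835 and 1.13 CPM (reads as a rate per library, with library sizes scaled by TMM) in Dkk1_KO, 2.89 and 0.348 CPM in IWP2 and 3.45 and 5.84 CPM in IWP2_removed, against 6.77 and 8.95 CPM in control. In Dkk1_KO it fell by 3.13 ± 0.68 on the log2 scale (SE, edgeR quasi-likelihood test, adjusted p = 0.00597). The Dkk1_KO libraries went against their label as epiblast cells: Pou5f1, which encodes the pluripotency factor Oct4, averaged 1.39 ± 0.284 CPM in Dkk1_KO and 457 ± 21.3 CPM in control (SD, n = 3 and 2). They also lay much closer to each other than other replicates did. The chi-square per degree of freedom between their counts was 1.79 to 2.27, compared with 94.4 between the IWP2 libraries, 39 between the IWP2_removed libraries and 32.9 between the control libraries. Calls of members, of Dkk1 and of the lists of other genes in Dkk1_KO against control were therefore repeated with its 3 libraries averaged to 1, under which Dkk1 did not pass the test (edgeR adjusted p = 0.129). In bulk RNA, fewer cells of a type and less RNA per cell cannot be told apart.

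The sequences on which the counting of these genes rests are shown first. Prl2c2 (chr13:12996125-13005383, minus strand, GRCm38) and Prl2c3 (chr13:12790816-12800079, minus strand) both encode proliferins. Their coding sequences, 672 bases each, were 99.6% identical and differed at 3 positions. The stretch from base 200 to base 319 of the coding sequence holds 2 of these positions, printed in capitals.
Prl2c2: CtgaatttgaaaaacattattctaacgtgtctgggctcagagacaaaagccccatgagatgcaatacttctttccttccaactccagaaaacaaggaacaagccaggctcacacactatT
Prl2c3: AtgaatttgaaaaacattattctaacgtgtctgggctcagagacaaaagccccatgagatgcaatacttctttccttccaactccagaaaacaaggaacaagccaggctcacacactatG
A read that covers neither capital could come from both genes. Of all stretches of 31 bases in Prl2c2 transcripts, 89.8% also occurred in transcripts of other members, and for Prl2c3 the share was 67%. They also shared 20.8% and 17.2% of these stretches with Gm7040, which is no member and had at most 0.0628 CPM. In 8 of 9 libraries the estimated reads of the Prl2c genes added up to a whole number, to within 0.0003 of a read, while the share of Prl2c2 in the sum of Prl2c2 and Prl2c3 ran between 34.9% and 66.9%. The division of reads between these genes is therefore uncertain, and their sum is given beside them.

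Sequences upstream of 4 members show the range of outcomes in these cells: Prl3d1, a giant cell hormone with no read, Tpbpa, the spongiotrophoblast marker with almost none, Prl2c3, which was detected in every library, and Psg23, which rose in Dkk1_KO. The windows run from 250 bases before to 50 bases after the gene start (RefSeq, GRCm38.p6). Capitals mark AGATAA or TGATAA, letters bound by GATA factors, and TGANTCA, letters bound by AP-1 factors, each on either strand. The windows are chr13:27093939-27094238 on the plus strand for Prl3d1, and chr13:60941887-60942186, chr13:12800030-12800329 and chr7:18616452-18616751 on the minus strand for Tpbpa, Prl2c3 and Psg23.
Prl3d1: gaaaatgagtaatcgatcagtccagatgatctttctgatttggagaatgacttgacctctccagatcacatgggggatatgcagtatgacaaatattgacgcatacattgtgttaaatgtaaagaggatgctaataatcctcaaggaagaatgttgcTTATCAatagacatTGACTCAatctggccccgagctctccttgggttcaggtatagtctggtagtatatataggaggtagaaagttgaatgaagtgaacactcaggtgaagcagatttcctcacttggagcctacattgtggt
Tpbpa: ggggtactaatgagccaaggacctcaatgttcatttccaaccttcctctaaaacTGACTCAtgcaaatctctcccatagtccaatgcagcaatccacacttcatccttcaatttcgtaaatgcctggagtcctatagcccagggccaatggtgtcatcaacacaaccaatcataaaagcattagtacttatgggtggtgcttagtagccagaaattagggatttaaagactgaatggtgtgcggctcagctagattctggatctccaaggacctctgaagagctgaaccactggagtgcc
Prl2c3: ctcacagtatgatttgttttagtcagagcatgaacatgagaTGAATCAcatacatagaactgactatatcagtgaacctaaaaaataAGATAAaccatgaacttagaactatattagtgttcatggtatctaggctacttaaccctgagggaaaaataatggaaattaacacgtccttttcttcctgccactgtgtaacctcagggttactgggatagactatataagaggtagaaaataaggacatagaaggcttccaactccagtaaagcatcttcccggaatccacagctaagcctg
Psg23: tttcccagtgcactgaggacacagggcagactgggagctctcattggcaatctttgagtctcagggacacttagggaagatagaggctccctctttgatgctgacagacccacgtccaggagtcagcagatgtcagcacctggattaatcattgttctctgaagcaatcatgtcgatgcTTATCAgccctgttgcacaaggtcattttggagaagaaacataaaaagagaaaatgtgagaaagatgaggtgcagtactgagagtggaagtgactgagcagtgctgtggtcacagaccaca
The windows of Prl3d1 and Prl2c3 held letters of both kinds. Of the 63 members, 54 had a window in the table. AGATAA or TGATAA occurred in 29 of them (53.7%), compared with 19% of all 26994 windows, with a window that held both counted once. Each motif was searched by itself, so its letters may also be part of another motif. By family this was 12 of 21 Prl windows (57.1%), 9 of 10 Psg windows (90%), 7 of 13 Ceacam windows (53.8%), 1 of 8 cathepsin windows (12.5%) and 0 of 2 Tpbp windows. TGANTCA occurred in 27.8% of member windows and 7.91% of all windows. The shares for TATAAA, the TATA box, were 20.4% and 14.1%. For GGAATG, letters bound by TEAD factors, they were 14.8% and 14.6%, and for CANNTG, the E-box, 72.2% and 72.3%. Paralogs share ancestry (the Prl2c3 and Prl2c5 windows were 95.3% identical), so windows are not independent, and a match of letters is not a measured binding site.

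Almost none of the placental hormone and protease genes were transcribed at a level that these libraries could show. Of the 63 members, 12 (19%) had no read in any library, 42 were seen but stayed below 10 reads in every library, and 9 (14.3%) reached 10 reads in at least 1 library. Among all 21816 protein-coding genes, 72.2% reached 10 reads and 7.81% had none. Summed over all members, the level was 29.0 to 32.9 CPM in Dkk1_KO, 25 to 28.4 CPM in IWP2, 24.5 to 32.6 CPM in IWP2_removed and 15.8 to 24.8 CPM in control. A count of 0 allows up to 3 reads, which was 0.168 to 0.277 CPM before TMM scaling, depending on the library. Such limits cover counting error only, since copies made by PCR are not independent molecules.

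Among the ligands, Prl3d1, placental lactogen I, had 0 reads in all 9 libraries, and so did Prl3b1, placental lactogen II. Prl3c1, Prl4a1, Prl7b1 and Prl7c1 were also at 0. Prl3d2 and Prl3d3, near copies of Prl3d1 with 97.9% and 98.7% identical coding sequence, were assigned 14 reads and 1 read over all libraries. Prl3d1 shared 75.2% of its 31-base stretches with other members, so the assignment among these copies is uncertain. Prl7d1, proliferin-related protein, an inhibitor of blood vessel growth, had at most 3.11 reads in a library, and Prl8a2, the decidual prolactin-related protein, had 1 read in all. Prl7a1 reached 7 reads and Prl8a9 reached 5 reads in a Dkk1_KO library, the highest counts, the proliferins aside, among the Prl genes that stayed below 10 reads.

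The spongiotrophoblast marker Tpbpa had 2 reads, both in Dkk1_KO replicate 1, and Tpbpb had 1 read, in Dkk1_KO replicate 3. Of the placental cathepsins, Cts3, Cts6 and Ctsm were at 0 in all libraries. Ctsq, a marker of giant cells of the labyrinth, had 1 read in all, in Dkk1_KO replicate 1. The 8 cathepsins together held 1 to 2 reads in each Dkk1_KO library, 0 in each IWP2 library, 1 to 2.08 in the IWP2_removed libraries and 0 to 2 in the control libraries. Of the 4 placental markers Prl3d1, Prl2c2, Tpbpa and Ctsq, only Prl2c2 had more than 2 reads in a library. The heat map of reads shows that detection was limited to single genes within the families.

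**Figure D1:**
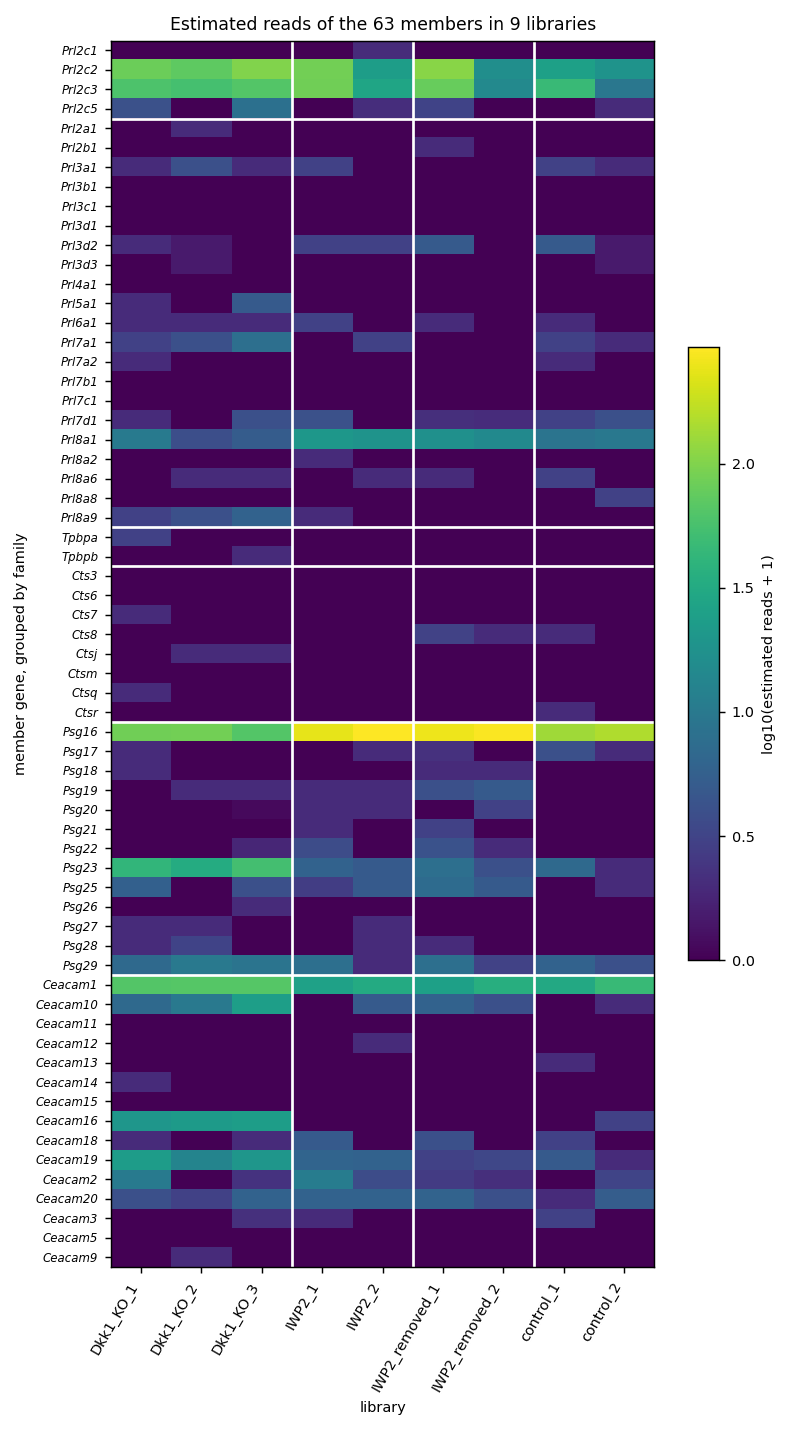
Estimated reads of each of the 63 members (rows, grouped by family) in each of the 9 libraries (columns), as log10(reads + 1); white lines separate families and groups. Dark rows are at or near 0, and the bright rows are Prl2c2, Prl2c3, Prl8a1, Psg16, Psg23, Ceacam1, Ceacam10, Ceacam16 and Ceacam19, which reached 10 reads in a library.

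Trophoblast stem cell genes rose in Dkk1_KO, while the regulators of giant cells and spongiotrophoblast were mixed. Of 10 trophoblast stem cell genes, all 10 were called higher in Dkk1_KO than in control (edgeR, adjusted p below 0.05), with a median log2 fold change of 5.06, compared with a median of -0.03 over all 18096 genes tested, of which 21.3% were called higher and 23.0% lower. With the Dkk1_KO libraries averaged to 1, 9 of the 10 were called, Eomes being the one lost, and 14.4% of all genes were. Elf5, a transcription factor that maintains trophoblast stem cells, had 309, 313 and 303 CPM in Dkk1_KO, against 0.178 and 0.186 CPM in control. Esrrb, a nuclear receptor of the same stem cells, averaged 268 ± 1.45 CPM in Dkk1_KO and 1.05 ± 0.0986 CPM in control (SD, n = 3 and 2). Groups did not overlap for either gene. Fgfr2, the receptor that receives the FGF signal in these stem cells, and Bmp8b, a secreted BMP ligand, rose by 3.33 ± 0.12 and 8.51 ± 0.23 on the log2 scale (SE).

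Of 9 regulators of giant cell or spongiotrophoblast differentiation, 4 rose and 0 fell in Dkk1_KO against control (edgeR), with a median log2 fold change of 1.28. The share called either way is near the 44.3% of all genes, but all 4 calls were higher, where 21.3% of all genes were called higher. The other 5, Ascl2, Prdm1, Bhlhe40, Mdfi and Fosl1, did not pass the test, and with the Dkk1_KO libraries averaged to 1 Junb did not either (edgeR adjusted p = 0.14). Hand1, a basic helix-loop-helix factor needed for giant cell formation, had 565, 575 and 582 CPM in Dkk1_KO, against 0.178 and 0 CPM in control. Gata2, known to act on Prl3d1 and Prl2c genes in giant cells, averaged 20.3 ± 1.27 CPM in Dkk1_KO and 1.28 ± 0.299 CPM in control. Tfap2a and Junb, an AP-1 subunit, rose by 3.5 ± 0.57 and 1.28 ± 0.36 on the log2 scale (SE). Of 9 junctional zone genes outside the member families, 5 rose and 0 fell (edgeR), with a median log2 fold change of 1.54. The rest did not pass the test. The share called either way is not far from the 44.3% of all genes, but all 5 calls were higher. Pcdh12, Plac1 and Ada lost their calls with the Dkk1_KO libraries averaged to 1, at log2 fold changes of 4.29, 1.53 and 2.22. Phlda2, an imprinted gene of this list that limits placental growth, rose by 4.06 ± 0.50 on the log2 scale (SE, edgeR adjusted p = 0.000307). Of 7 labyrinth genes tested out of 9, 5 rose and 0 fell, with a median of 2.27 and with Ovol2, Cebpa, Dlx3 and Slc16a1 as the called genes of smallest adjusted p. All 4 were also called with the Dkk1_KO libraries averaged to 1, while Gcm1, the other called gene, lost its call. Slc16a3 and Ly6e did not pass the test. Syna and Synb were not tested for lack of reads, at 0.488 ± 0.235 and 0.12 ± 0.146 CPM in Dkk1_KO (SD).

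Per transcript length the members stood well below Hand1 and Elf5. Hand1 averaged 383 ± 14.8 TPM (a level scaled by transcript length and library total) and Elf5 163 ± 6.91 TPM in Dkk1_KO (SD, n = 3), with 0.857% and 2.45% of protein-coding genes above them. The highest members in the same libraries were Prl2c3 at 8.48 ± 0.423 TPM and Prl2c2 at 8.24 ± 1.70 TPM, with 33.1% and 33.6% of protein-coding genes above them. Not all regulators stood above the members: Gata2 was at 7.38 ± 0.261 TPM, Fosl1 at 4.71 ± 0.0973, Tfap2a at 4.58 ± 1.14, Ascl2 at 0.719 ± 0.107 and Prdm1 at 0.667 ± 0.137. Ceacam1 and Ceacam16, at 1.29 ± 0.174 and 1.29 ± 0.378 TPM, came next, and their levels did not differ beyond their spread. Psg23, Ceacam10 and Psg16 followed at 0.925 ± 0.207, 0.851 ± 0.659 and 0.816 ± 0.161 TPM, again within their spread of each other. Ceacam19 was at 0.241 ± 0.0605 TPM and Prl8a1 at 0.162 ± 0.0951 TPM. The order in control was Prl2c3 (4.61 ± 5.04), Prl2c2 (2.74 ± 1.58), Psg16 (1.83 ± 0.439), Ceacam1 (0.967 ± 0.0288) and Prl8a1 (0.308 ± 0.0922), with the other detected members at 0.115 TPM or below. This is an order of means over libraries that differed: in control replicate 2 Prl2c2 was at 1.62, Psg16 at 1.52 and Prl2c3 at 1.05 TPM, so the first 3 did not differ beyond their spread.

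**Figure D2:**
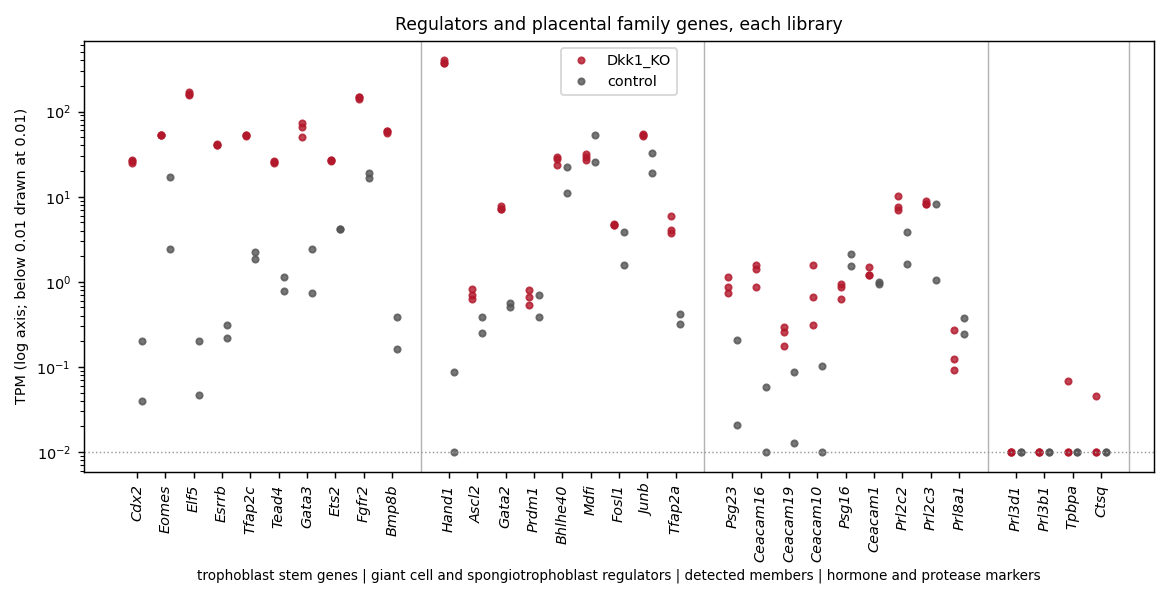
TPM on a log axis in each Dkk1_KO library (red, left of each pair) and each control library (grey, right), for 10 trophoblast stem cell genes, 9 regulators of giant cells and spongiotrophoblast, the 9 detected members and 4 hormone and protease markers; values below 0.01 are drawn at 0.01. Hand1 and Elf5 stood at 383 and 163 TPM on average in Dkk1_KO, while no detected member averaged above 8.48 TPM there and Prl3d1 and Prl3b1 stayed at 0.

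Of the 63 members, 9 had enough reads for the test, and 5 of these were called between Dkk1_KO and control (edgeR, adjusted p below 0.05): Psg23, Ceacam16, Ceacam19 and Ceacam10 were higher and Psg16 was lower in Dkk1_KO. Of all 18096 genes tested, 44.3% were called in this comparison, 21.3% higher and 23.0% lower, so a share of 5 of 9 is not far from that of other genes. The 4 members that rose reached 10 reads in Dkk1_KO libraries and in no other library. Psg23, Ceacam16 and Ceacam19 did so in all 3 of these libraries, and Ceacam10 in 1 of them. These 4 members entered the test through the group in which they were high, and their number says nothing about the families. With the Dkk1_KO libraries averaged to 1, 0 of 9 members were called by edgeR, and 5 had an unadjusted p below 0.05. Library by library, 6 of the 9 did not overlap and were higher in Dkk1_KO, 1 did not overlap and was lower, and 2 overlapped. Of all genes tested, 36.2% lay above control in every Dkk1_KO library and 37.2% lay below it.

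Psg23 (chr7:18606343-18616501, minus strand, GRCm38) encodes a secreted pregnancy-specific glycoprotein, a family known to act on immune cells and on blood vessels. It had 2.87, 2.43 and 3.75 CPM in Dkk1_KO, 0.278 and 0.232 CPM in IWP2, 0.424 and 0.188 CPM in IWP2_removed, and 0.534 and 0.0622 CPM in control. All 3 Dkk1_KO libraries lay above all 6 others, which overlapped each other. In Dkk1_KO it was higher than in control by 3.44 ± 0.70 on the log2 scale (SE, edgeR adjusted p = 0.00427), and with the Dkk1_KO libraries averaged to 1 the edgeR adjusted p was 0.0645. The size rested on the control libraries, with 5.43 on the log2 scale without control replicate 1 and 2.51 without control replicate 2, and the call held in both (edgeR). Of its 31-base stretches 47.3% were shared with other members, 39.1% with Psg21, but Psg21 was assigned 0 reads in Dkk1_KO. Another 6.52% were shared with A230059L01Rik, which is no member and had 4.06, 5.24 and 5.52 CPM in Dkk1_KO, against 0.178 and 0.373 CPM in control. Its part in the Psg23 count was not tested.

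Psg16 (chr7:17074040-17133450, plus strand) was the member with most reads and moved the other way. This gene is known for a transcript found in brain. It had 5.96, 6.61 and 4.46 CPM in Dkk1_KO, 13.3 and 17 CPM in IWP2, 15.4 and 17.8 CPM in IWP2_removed, and 11.7 and 9.32 CPM in control. The Dkk1_KO libraries lay below all others, and the control libraries lay between them and the 4 libraries of the lines that had been in IWP2. In Dkk1_KO it fell by 0.88 ± 0.23 on the log2 scale relative to control (SE, edgeR adjusted p = 0.0141). The edgeR adjusted p was 0.167 with the Dkk1_KO libraries averaged to 1, 0.054 without Dkk1_KO replicate 3 and 0.088 without control replicate 1. Psg16 and Psg23 held most of the reads of their family. The other 11 Psg genes stayed below 10 reads in every library, with Psg29 the highest at up to 9 reads.

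Summed over the 13 Psg genes, levels were 9.20 to 10.0 CPM in Dkk1_KO, 14.4 to 17.8 CPM in IWP2, 17.3 to 18.8 CPM in IWP2_removed and 9.70 to 12.9 CPM in control. The Dkk1_KO and control ranges overlapped in this sum, in which the rise of Psg23 and the fall of Psg16 both count.

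Ceacam genes encode adhesion molecules of the same immunoglobulin superfamily branch as Psg. Ceacam16 (chr7:19852097-19861299, minus strand), known as a glycoprotein of the tectorial membrane of the inner ear, had 1.33, 1.59 and 1.63 CPM in Dkk1_KO. It had 0 reads in all 4 libraries of IWP2 and IWP2_removed, and 0 and 0.124 CPM in control. The Dkk1_KO and control groups did not overlap. Its 63 reads in Dkk1_KO and 2 reads in control gave a ratio of 20.7 after scaling for library size, with a 95% counting interval of 5.50 to 175 (edgeR adjusted p = 0.00513, and 0.099 with the Dkk1_KO libraries averaged to 1). Both control reads were in replicate 2, and without control replicate 1 the log2 fold change was 3.53, against 4.26 with all libraries. It shared 0% of its 31-base stretches with any other gene. The gene overlaps Gm19345 on the opposite strand, which averaged 0.742 ± 0.123 CPM in Dkk1_KO and 0.685 ± 0.0867 CPM in control (SD, n = 3 and 2). Whether the counting used strand is not stated in the labels.

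Ceacam19 (chr7:19875742-19887965, minus strand) lies 14.4 kb from Ceacam16. It had 1.54, 0.911 and 1.34 CPM in Dkk1_KO, 0.278 and 0.290 CPM in IWP2, 0.121 and 0.126 CPM in IWP2_removed, and 0.356 and 0.0622 CPM in control. Every Dkk1_KO library was above the 6 others. It was higher in Dkk1_KO than in control by 2.68 ± 0.64 on the log2 scale (SE, edgeR adjusted p = 0.00944). The edgeR adjusted p was 0.114 with the Dkk1_KO libraries averaged to 1 and 0.0603 without control replicate 2. The log2 fold change was 1.84 without that library and 4.19 without control replicate 1.

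Ceacam10 (chr7:24777206-24784657, plus strand), which encodes a secreted Ceacam protein, had 0.420, 0.683 and 1.63 CPM in Dkk1_KO, 0 and 0.232 CPM in IWP2, 0.303 and 0.188 CPM in IWP2_removed, and 0 and 0.0622 CPM in control. Its Dkk1_KO libraries were all above the others but spread widely. The 38 reads in Dkk1_KO and 1 read in control gave a scaled ratio of 25 with a 95% counting interval of 4.22 to 1010. The call (edgeR adjusted p = 0.0238) was lost without control replicate 1 (0.117), without control replicate 2 (0.0831) and with the Dkk1_KO libraries averaged to 1 (0.109).

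Ceacam1 (chr7:25461707-25477603, minus strand), an adhesion receptor of epithelial and immune cells, had 4.48, 4.86 and 4.6 CPM in Dkk1_KO, 1.39 and 1.80 CPM in IWP2, 1.45 and 2.20 CPM in IWP2_removed, and 2.67 and 2.80 CPM in control. The groups did not overlap between Dkk1_KO and control, but the difference of 0.76 ± 0.29 on the log2 scale did not pass the test (SE, edgeR adjusted p = 0.0628). It was called without IWP2 replicate 1 (edgeR adjusted p = 0.0391), without IWP2 replicate 2 (0.0425) and in a fit of the groups Dkk1_KO and control alone (0.0175). Of its 31-base stretches 36.2% were shared with Ceacam2, which was assigned at most 9.98 reads in a library. Ceacam5, Ceacam11 and Ceacam15 had no read in any library.

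**Figure D3:**
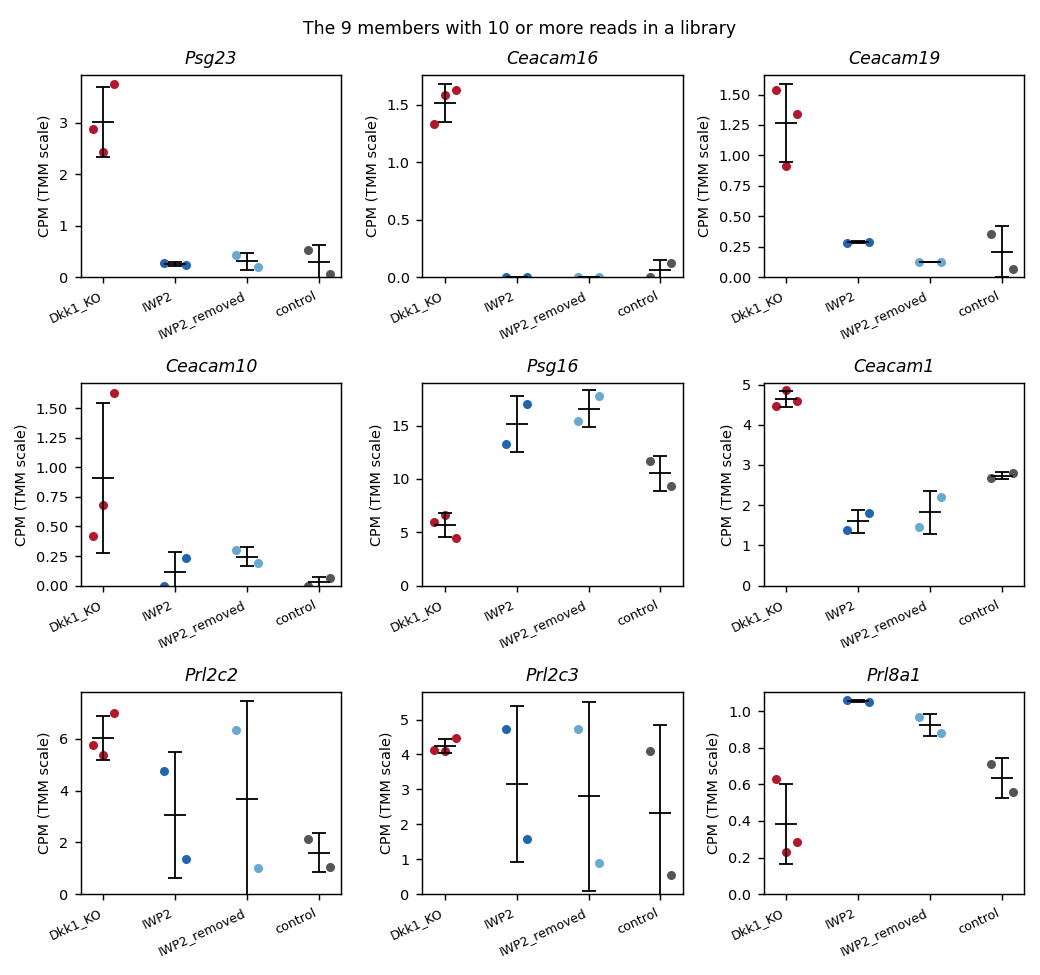
CPM (TMM scale, linear axis) of the 9 detected members in each library (points), with the mean and SD of each group (black); groups are Dkk1_KO (n = 3), IWP2, IWP2_removed and control (n = 2 each). Psg23, Ceacam16, Ceacam19 and Ceacam10 were higher in all Dkk1_KO libraries, Psg16 was lower in them, and Prl2c2 and Prl2c3 had widely spread replicates in the 3 other groups.

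The proliferins were the most abundant of the placental hormones, and their replicates differed widely in every group but Dkk1_KO. Prl2c2 had 5.75, 5.39 and 7.0 CPM in Dkk1_KO, 4.78 and 1.34 CPM in IWP2, 6.35 and 1.01 CPM in IWP2_removed, and 2.14 and 1.06 CPM in control. Prl2c3 had 4.13, 4.10 and 4.46 CPM in Dkk1_KO, 4.73 and 1.57 CPM in IWP2, 4.72 and 0.880 CPM in IWP2_removed, and 4.10 and 0.559 CPM in control. For Prl2c2 the Dkk1_KO libraries lay above both control libraries, while for Prl2c3 the groups overlapped. Against control the log2 fold changes in Dkk1_KO were 1.94 ± 0.81 for Prl2c2 and 0.90 ± 0.89 for Prl2c3, and neither passed the test (SE, edgeR adjusted p = 0.0841 and 0.445). Prl2c2 was called under 7 of 19 alternatives, among them the DESeq2 Wald test (adjusted p = 0.0291) and a fit of the groups Dkk1_KO and control alone (edgeR adjusted p = 0.00288).

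The sum of Prl2c2 and Prl2c3, which leaves out the division of reads between them, was 9.88, 9.49 and 11.5 CPM in Dkk1_KO, 9.51 and 2.90 CPM in IWP2, 11.1 and 1.88 CPM in IWP2_removed, and 6.23 and 1.62 CPM in control. Replicate 1 exceeded replicate 2 by 3.27-fold in IWP2, 5.88-fold in IWP2_removed and 3.86-fold in control, whereas the highest Dkk1_KO library exceeded the lowest by 1.21-fold. In IWP2 and IWP2_removed replicate 1 was within the Dkk1_KO range, in control it was below that range, and replicate 2 was far below it in all 3 groups.

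Genes of blood and macrophage cells differed between the same replicates. All 8 of 8 such genes, Cd68 and Lyz2 among them, were higher in replicate 1 than in replicate 2 in IWP2, IWP2_removed and control. Their summed level was 643 to 672 CPM in Dkk1_KO, 98.1 to 214 CPM in IWP2, 127 to 336 CPM in IWP2_removed and 146 to 319 CPM in control, and none of the 8 was at 0. Replicate 1 exceeded replicate 2 in this sum by 2.19-fold in IWP2, 2.64-fold in IWP2_removed and 2.19-fold in control. This was not particular to these genes. Summed trophoblast stem cell genes had 98.1 and 71.6 CPM in IWP2, 164 and 104 in IWP2_removed, and 135 and 80.9 in control. Sums of extraembryonic endoderm genes and of the widely expressed cathepsins and inhibitors were also higher in replicate 1. Junctional zone and labyrinth sums were lower in it, and other lists were mixed. The share of all genes was not counted. Between Dkk1_KO and control, Cd68 and Lyz2 rose and the other 6 did not pass the test (edgeR), and with the Dkk1_KO libraries averaged to 1 Lyz2 did not either (adjusted p = 0.164). The 10 feeder fibroblast genes, summed, were 2180 to 2230 CPM in Dkk1_KO, 2700 to 3250 CPM in IWP2, 3510 to 4050 CPM in IWP2_removed and 3440 to 4190 CPM in control, and 7 of them fell in Dkk1_KO against control while 0 rose, or 4 and 0 with the Dkk1_KO libraries averaged to 1. Of all genes tested, 21.3% were called higher and 23.0% lower in that comparison with the Dkk1_KO libraries kept apart, and fewer with them averaged. The ratio of replicate 1 to replicate 2 in the feeder sum was 1.2 in IWP2, 1.15 in IWP2_removed and 0.822 in control. The part of either cell type in the proliferin levels was not tested.

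**Figure D4:**
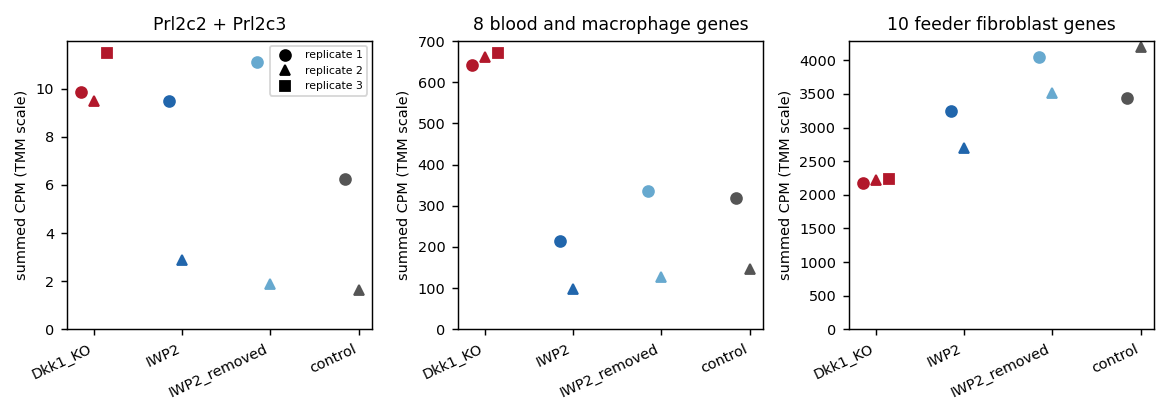
Summed CPM (TMM scale, linear axes from 0) per library of Prl2c2 and Prl2c3 (left), of 8 blood and macrophage genes (middle) and of 10 feeder fibroblast genes (right); colours are groups and symbols are replicate numbers. In IWP2, IWP2_removed and control the circle (replicate 1) lies above the triangle (replicate 2) in the left and middle panels, and the Dkk1_KO libraries lie together.

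Prl8a1 (chr13:27573922-27582171, minus strand), a prolactin-related gene within the main Prl cluster, had low levels in every library. It was at 0.631, 0.228 and 0.283 CPM in Dkk1_KO, 1.06 and 1.05 CPM in IWP2, 0.968 and 0.880 CPM in IWP2_removed, and 0.712 and 0.559 CPM in control. The Dkk1_KO libraries overlapped control and lay below the 4 libraries of IWP2 and IWP2_removed. The log2 fold change of -0.71 ± 0.51 between Dkk1_KO and control did not pass the test (SE, edgeR adjusted p = 0.297). All of its reads were assigned to 1 of its transcripts, ENSMUST00000095926. Its reads and those of Prl8a9, Prl7a1 and the rest of the cluster add up to a Prl sum, proliferins aside, of 1.14 to 1.84 CPM in Dkk1_KO, 1.34 to 1.67 CPM in IWP2, 0.942 to 1.45 CPM in IWP2_removed and 0.995 to 1.96 CPM in control, ranges that overlapped.

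Prl and Gh, pituitary hormones related to the Prl members, were not tested for lack of reads. Of 7 genes of the prolactin and growth hormone signalling axis that were tested, 3 rose and 0 fell in Dkk1_KO against control (edgeR), with a median log2 fold change of 0.37. That share is near the 44.3% of all genes called either way, but 21.3% of all genes were called higher. Cish, a feedback inhibitor of cytokine receptors, rose by 1.55 ± 0.19 on the log2 scale (SE). Stat5a, the transcription factor of the pathway, rose by 1.75 ± 0.25, and Jak2, its kinase, by 0.80 ± 0.26 (SE). With the Dkk1_KO libraries averaged to 1 Jak2 lost its call (edgeR adjusted p = 0.228). Stat5b and Socs2, with log2 fold changes of 0.26 and -0.15, did not pass the test. The receptor Prlr, named here after its values were seen, averaged 2.23 ± 0.0968 CPM in Dkk1_KO and 1.74 ± 0.437 CPM in control, and the difference did not pass the test (SD, edgeR adjusted p = 0.594).

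The widely expressed cathepsins and their inhibitors differed in level from the placental ones. Of 16 tested, 8 rose and 0 fell in Dkk1_KO against control (edgeR), with a median log2 fold change of 0.85. The share called either way is not far from the 44.3% of all genes in this comparison, but 21.3% of all genes were called higher. With the Dkk1_KO libraries averaged to 1, Cstb and Ctsz alone were called. Cstb, an inhibitor of cysteine cathepsins, averaged 112 ± 1.47 CPM in Dkk1_KO and 42.9 ± 4.12 CPM in control. Ctsz, a lysosomal protease, averaged 200 ± 6.90 CPM in Dkk1_KO and 103 ± 15.7 CPM in control. Ctla2b, whose product resembles the inhibitory propeptide of a cathepsin, rose by 2.58 ± 0.62 on the log2 scale (SE), a call lost with the Dkk1_KO libraries averaged to 1 (edgeR adjusted p = 0.0965). The 8 placental cathepsins together reached 0.0708 to 0.140 CPM in Dkk1_KO and 0 to 0.178 CPM in control.

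IWP2 and its removal left the detected members without a call. In IWP2 against control 0 of the 9 tested members were called by edgeR, where 2.19% of all genes were, 1 member had an unadjusted p below 0.05, and DESeq2 called 0. That member was Ceacam1, with a log2 fold change of -0.78 ± 0.32 (SE, edgeR adjusted p = 0.280). In IWP2_removed against control 0 were called, where 1.25% of all genes were, 1 had an unadjusted p below 0.05, and DESeq2 called 0. That member was Psg16, with a log2 fold change of 0.66 ± 0.25 (SE, edgeR adjusted p = 0.328), next to 0.53 ± 0.25 in IWP2 against the same control libraries (edgeR adjusted p = 0.344). In IWP2_removed against IWP2 0 were called by edgeR or DESeq2 and 0 had an unadjusted p below 0.05, where 0.0608% of all genes were called by edgeR. The standard errors of the log2 fold changes in IWP2 against control ran from 0.25 for Psg16 to 1.72 for Ceacam10. These tests share 1 estimate of the spread with the closely alike Dkk1_KO libraries. In a fit of the 6 libraries without Dkk1_KO, 6 of all genes were called higher and 6 lower in IWP2 against control. In IWP2_removed it was 1 higher and 0 lower, against control and against IWP2 alike. The shares, unadjusted p-values and standard errors above may therefore be too small or too favourable.

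Hand1 and Elf5 stood near 0 in these lines. Hand1 averaged 0.0568 ± 0.00174 CPM in IWP2 and 0.154 ± 0.0395 CPM in IWP2_removed, against 0.0890 ± 0.126 CPM in control (SD, n = 2 each). Elf5 averaged 0.0290 ± 0.0411 CPM in IWP2 and 0.247 ± 0.00654 CPM in IWP2_removed, against 0.182 ± 0.00594 CPM in control. Other genes of these lists were well above 0 there, with Fgfr2 at 20.2 ± 1.83 CPM in IWP2 and 28.9 ± 2.33 CPM in IWP2_removed, against 29.1 ± 0.541 CPM in control. Pou5f1 averaged 723 ± 552 CPM in IWP2 and 635 ± 143 CPM in IWP2_removed, so the epiblast marker missing from Dkk1_KO was present in both.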

How the data were processed

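Stranded messenger RNA libraries (TruSeq) of 9 samples were analysed. The deposited tables give estimated counts and TPM per transcript, per the file headers. Salmon, DESeq2 and edgeR are named in the submitters' processing notes, and their versions and the transcriptome build are not given in the sources used here. Transcripts were assigned to genes by stable identifier with GENCODE vM21 (GRCm38). Of 133618 transcripts 133399 matched, and the 219 others held 0.117% to 0.161% of reads. Estimated counts were summed per gene and rounded to whole numbers, and TPM were summed.

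One edgeR 4.0.16 quasi-likelihood model (R 4.3.3) covered all 9 libraries with a mean per group, TMM scaling and filterByExpr, which kept 18096 genes. P-values were adjusted over these genes (Benjamini-Hochberg), and a gene was called below 0.05. Biological coefficient of variation was 0.229. Standard errors with edgeR fold changes were computed as the absolute log2 fold change divided by the square root of the F statistic. They are approximate, and at low counts they need not match the p-value. The script was tested on simulated data. Counting intervals are exact at 95% (conditional binomial) and cover counting error only. Alternatives were other size factors, the DESeq2 1.42.0 Wald test, other filters, limma-trend (limma 3.58.1) on log2(TPM + 1), fewer groups, replicate blocks, Dkk1_KO averaged to 1 library, and each library left out. Averaging Dkk1_KO for genes other than members was added after seeing the data.

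Named genes were members with at least 10 reads in a library, up to 4 called genes per companion list, and Dkk1. Of members below 10 reads, those named were chosen for their known role or after their values were seen, as were Prlr and genes that overlap, adjoin or share sequence with a member. Members and lists were chosen with earlier results of these data known. Shared 31-base stretches were counted among annotated transcripts. Promoter windows are from RefSeq (GRCm38.p6). A withheld item among the companion genes is not reported here.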

Additional observations from a re-analysis of the deposited data

How the results depend on the processing

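No member was called under any alternative run in IWP2 against control, IWP2_removed against control or IWP2_removed against IWP2. For Dkk1_KO against control the 5 calls became 0 with the Dkk1_KO libraries averaged to 1, and 3 to 6 when 1 library was left out. There were 3 calls without Dkk1_KO replicate 3, 3 without control replicate 1 and 3 without control replicate 2. The cause was not tested. Other settings gave 4 to 6 calls, and filters left Ceacam10 with a value under 15 of 19 alternatives and Prl8a1 under 18. Over the members with 10 reads or more in a library and all alternatives there were 673 values. Of these, 653 kept their side of the threshold, 10 lost a call and 10 gained one. Of called values 0 changed sign, while 24 uncalled values did.

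The replicate number as a block gave 6 calls in Dkk1_KO against control, adding Prl2c2 (adjusted p = 0.0295), and a block by file-name letter also gave 6. The block gave 0 calls in the 3 other comparisons. The labels do not say that numbers mark a shared culture or day. Deviations of same-numbered libraries correlated at -0.0179 and -0.0365 between Dkk1_KO and control, 0.334 between IWP2 and control, 0.456 between IWP2_removed and control and 0.5 between IWP2_removed and IWP2. With 2 pairs a comparison, the numbers are read as shared numbers only.

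Upper-quartile scaling moved the median log2 fold change of all genes in Dkk1_KO against control to -0.10, and the 5 calls among members stayed 5. Depth limits what can be said of 54 of 63 members, which had fewer than 10 reads in every library.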

Other observations

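Genes beside the Ceacam members that rose in Dkk1_KO were read as well. Cblc, a ubiquitin ligase gene 55.3 kb from Ceacam16, averaged 21.8 ± 1.37 CPM in Dkk1_KO and 0.271 ± 0.120 CPM in control (SD, n = 3 and 2). Bcl3, which lies between Cblc and Ceacam16, averaged 15.2 ± 1.98 CPM in Dkk1_KO and 8.62 ± 5.65 CPM in control, and it did not pass the test (edgeR adjusted p = 0.141). Pvr, an adhesion receptor 15.6 kb beyond Ceacam19, averaged 45.1 ± 2.27 CPM in Dkk1_KO and 27.4 ± 6.62 CPM in control (edgeR adjusted p = 0.0557). Near Ceacam10, Cd177 averaged 1.18 ± 0.223 CPM in Dkk1_KO and 0.107 ± 0.0249 CPM in control, and Tex101 averaged 1.05 ± 0.409 CPM in Dkk1_KO and 0.0311 ± 0.0440 CPM in control. On the other side, the ribosomal protein gene Rps19 averaged 741 ± 14.6 CPM in Dkk1_KO and 562 ± 144 CPM in control, and Cd79a, a B cell receptor subunit, averaged 1.53 ± 0.389 CPM in Dkk1_KO and 0.107 ± 0.0249 CPM in control. Beside Psg16, Hif3a averaged 30.7 ± 1.08 CPM in Dkk1_KO and 41.6 ± 12.1 CPM in control, and it did not pass the test (edgeR adjusted p = 0.189), and Ppp5c averaged 145 ± 3.56 CPM in Dkk1_KO and 117 ± 1.71 CPM in control (edgeR adjusted p = 0.0245). The nearest gene tested beside Psg23 lay 205 kb away. These neighbours were chosen by position, with predicted genes passed over, and 44.3% of all genes tested were called in this comparison.

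Other cell types were described by marker lists, which were chosen with earlier results of these data known. Of all genes tested in Dkk1_KO against control, 21.3% were called higher and 23.0% lower (edgeR). Fewer were called with the Dkk1_KO libraries averaged to 1. Of 8 epiblast genes, 6 fell and 1 rose in Dkk1_KO against control (edgeR). Their median log2 fold change was -7.24. Averaging the Dkk1_KO libraries to 1 gave the same counts. Nanog averaged 2.00 ± 0.167 CPM in Dkk1_KO and 169 ± 0.604 CPM in control. Of 7 extraembryonic endoderm genes tested, 2 rose and 2 fell, or 2 and 0 with the Dkk1_KO libraries averaged to 1. Gata4 averaged 19.5 ± 1.96 CPM in Dkk1_KO and 1.41 ± 0.147 CPM in control, and Lama1 averaged 2.65 ± 0.660 CPM in Dkk1_KO and 27.7 ± 5.62 CPM in control.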
